A study of Homo sapiens with 12 samples.

Results

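The protein-coding genes of human chromosome 3 were followed along the chromosome in HCT116 cells with and without a degradable form of SDS22, the PP1-binding protein encoded by PPP1R7. The members were selected on their summed raw count over the 12 libraries, which had to reach 200. Just outside the threshold lay FOXL2NB (190 counts), which was left out, and just inside it CRYGS (202) and RAB43 (216), which were kept. In all, 658 of the 1071 protein-coding genes of chromosome 3 met this rule, and 413 lay under the threshold, 184 of them with no count at all. The whole table held 58233 genes, of which 16657 were tested, and all 658 members were among these. The chromosome was proposed because its RNA levels were already known to be lower in one of the lines, so the size of that difference over the whole chromosome is given as a description, without a test of its own.

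HCT116 is an established human colorectal carcinoma cell line. Both lines used here carried Tet-OsTIR1, a doxycycline-inducible plant F-box protein that lets auxin (IAA) mark degron-tagged proteins for destruction. The parental line carried this transgene alone. The labels call the other line SDS22 degron and give its genotype as HCT116 Tet-OsTIR1 SDS22 WT; following the study's methods, both its PPP1R7 alleles were edited to encode SDS22-mAID-mClover, and it came from isolated colonies, so every difference between the lines is one between a single engineered line and its parent. Each line was left untreated or exposed for 48 h to 2 µg/ml doxycycline with 500 µM IAA (Dox/IAA). The labels give 3 biological replicates of each, which made 4 groups of 3 libraries. Poly-A RNA was sequenced, and each library held 12133915 to 14657508 counts, of which 444044 to 616338 fell on the members. The 6 epithelial marker genes examined were detected in all libraries (EPCAM at 267 to 303 CPM, reads scaled to the size of the library), while CD3E, CDH5 and COL1A2 had no count in any library, PTPRC and PECAM1 stayed at or under 0.0824 CPM, and COL1A1 lay between 9.58 and 32.7 CPM. PPP1R7 RNA lay between 40.1 and 51.2 CPM in all 12 libraries and did not pass the test in any comparison, which checks no label because the degron acts on the protein.

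Chromosome 3 is a large chromosome whose short arm carries long known tumour suppressor genes such as VHL, BAP1 and SETD2, and whose long arm carries oncogenes such as PIK3CA and MECOM. When the number of copies of a chromosome differs between cell lines, the RNA of its genes commonly follows in the same direction, over the whole of the altered stretch rather than in single pathways, whereas a transcription factor or a signal usually moves scattered genes. RNA counts alone do not tell the number of copies of a gene from the amount of RNA made per copy, and DNA was not analysed here. Likewise, in bulk RNA, fewer cells that express a gene and less RNA per cell cannot be told apart.

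Because the members shared their chromosome but not their function, the start regions of 4 members at the ends of the range are shown first, 3 of the lowest in untreated SDS22-degron cells and the highest, among members with a mean of at least 10 CPM, to show how unlike they are. Each sequence is the RefSeq promoter stretch of GRCh38.p14 on the gene's strand, from 250 bases before to 50 bases after the annotated start, 300 bases in all, with CG steps in capitals. They lie at chr3:108510547-108510846 (MYH15, minus strand), chr3:185552539-185552838 (LIPH, minus strand), chr3:53846370-53846669 (CHDH, minus strand) and chr3:111071566-111071865 (NECTIN3, plus strand).
MYH15: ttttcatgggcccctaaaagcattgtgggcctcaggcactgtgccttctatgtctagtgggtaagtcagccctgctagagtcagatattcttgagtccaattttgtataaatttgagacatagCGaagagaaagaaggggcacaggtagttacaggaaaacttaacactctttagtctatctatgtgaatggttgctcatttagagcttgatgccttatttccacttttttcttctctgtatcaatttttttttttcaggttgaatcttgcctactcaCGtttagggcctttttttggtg
LIPH: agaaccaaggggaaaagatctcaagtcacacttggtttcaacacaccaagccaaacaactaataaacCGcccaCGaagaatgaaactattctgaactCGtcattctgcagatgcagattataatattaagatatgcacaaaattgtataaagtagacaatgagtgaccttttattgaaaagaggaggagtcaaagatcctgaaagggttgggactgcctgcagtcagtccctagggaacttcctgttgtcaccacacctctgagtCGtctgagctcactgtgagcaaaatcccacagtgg
CHDH: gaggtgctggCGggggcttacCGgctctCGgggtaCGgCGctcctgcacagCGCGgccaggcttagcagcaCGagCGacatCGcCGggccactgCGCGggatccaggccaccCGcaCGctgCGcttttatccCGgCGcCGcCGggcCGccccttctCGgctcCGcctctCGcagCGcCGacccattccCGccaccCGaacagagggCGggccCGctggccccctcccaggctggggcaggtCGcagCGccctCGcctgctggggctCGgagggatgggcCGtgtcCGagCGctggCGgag
NECTIN3: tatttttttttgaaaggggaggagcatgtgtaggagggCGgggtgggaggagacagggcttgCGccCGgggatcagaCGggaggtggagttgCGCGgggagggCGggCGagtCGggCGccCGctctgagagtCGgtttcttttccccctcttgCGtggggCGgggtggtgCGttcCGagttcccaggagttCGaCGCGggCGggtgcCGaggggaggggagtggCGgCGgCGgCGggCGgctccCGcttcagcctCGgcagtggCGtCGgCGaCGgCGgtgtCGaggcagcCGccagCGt
The MYH15 and LIPH stretches held 2 and 4 CG steps with 40% and 43% G and C, whereas those of CHDH and NECTIN3 held 38 and 36 with 75.7% and 70.3%. A promoter was found for 571 of the members. Their median of 27 CG steps was the same as that of 9126 other tested protein-coding genes, beside 14 over all 27305 promoters in the table. Searched on both strands, the letters TATAAA were found in 7.18% of the members' promoters (5.02% of the other tested genes and 12% of all promoters), CCAAT in 32.2% (36.8% and 35.7%), and GGGCGG in 69.5% (71.7% and 44.6%). The differences between these shares were not tested, and a match is only a match of letters.

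The members took up a smaller part of each SDS22-degron library than of each parental library. They received 4.62%, 4.64% and 4.57% of the counts of the 3 untreated parental libraries and 4.62%, 4.70% and 4.71% of those of the Dox/IAA-treated parental libraries. In the SDS22-degron line the shares were 3.70%, 3.72% and 3.63% without treatment and 3.77%, 3.70% and 3.66% with Dox/IAA. No SDS22-degron library reached any parental one, and the highest SDS22-degron share (95% exact binomial interval 3.764 to 3.785%) lay well under the lowest parental share (4.559 to 4.583%), where the intervals cover counting error only. The group means were 4.61% ± 0.0346 (SD, n = 3) in untreated parental, 3.69% ± 0.0464 in untreated SDS22-degron, 4.68% ± 0.0477 in treated parental and 3.71% ± 0.0585 in treated SDS22-degron cells. The SDS22-degron share was thus 80.0% of the parental share without treatment and 79.4% of it with treatment.

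**Figure D1:**
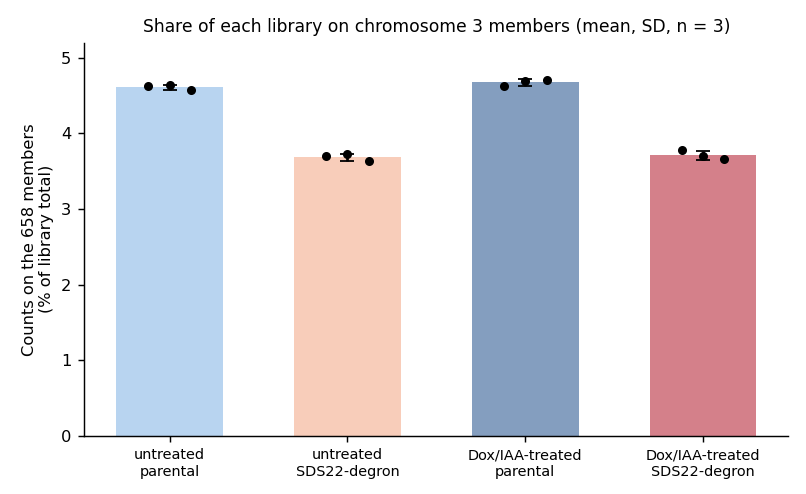
Share of each library's total count that fell on the 658 chromosome 3 members, in percent of the library total, for the 4 groups. Bars give the mean and error bars the SD of 3 libraries, and dots the single libraries: the parental libraries sit between 4.57 and 4.71% and the SDS22-degron libraries between 3.63 and 3.77%.

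The first comparison asked how the members differed between the lines before any degradation was induced. The median log2 fold change of the members, untreated SDS22-degron over untreated parental, was -0.32, which corresponds to 80% of the parental level, beside 0.00 over all tested genes and 0.01 over 11315 protein-coding genes of the other autosomes. The quartiles of the members lay at -0.46 and -0.17, 568 members (86.3%) were below 0, and 397 (60.3%) were within 0.2 of the median. In the quasi-likelihood F test of edgeR, with p-values adjusted by Benjamini-Hochberg over all tested genes and called under 0.05, 384 members (58.4%) were lower in the SDS22-degron line, against 15% of all tested genes, and 24 (3.65%) were higher, against 13.2% of all tested genes. Of 11738 other protein-coding genes tested, 15.4% were lower and 16.5% higher. The cut-off that the study applied was also used. With a log2 fold change beyond 1 in either direction and a p below 0.05 before adjustment, 11 members were lower (1.3% of all tested genes were) and 7 higher (2.84%).

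The second comparison asked the same after 48 h of Dox/IAA in both lines, in libraries that the first did not use. The median of the members was -0.28, or 82.1% of the treated parental level, beside -0.01 over all tested genes and 0.02 over the protein-coding genes of the other autosomes. The spread was wider, with quartiles of -0.53 and -0.07, and 530 members (80.5%) were below 0. By the same test 351 members (53.3%) were lower, against 23.1% of all tested genes, and 53 (8.05%) were higher, against 21.8%. At this second cut-off 26 members were lower (3.38% of all tested genes were) and 7 higher (3.25%). Of the members lower between the untreated lines 275 were also lower between the treated lines, which is 71.6% of the first set and 78.3% of the second. Higher in both were 17 members, 70.8% of the first set and 32.1% of the second, while 7 members were called in opposite directions and 145 in neither comparison. Across the 658 members the log2 fold changes of the 2 comparisons had a Pearson r of 0.64 and a Spearman rho of 0.55, given as a description because the genes share the libraries and the lines.

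**Figure D2:**
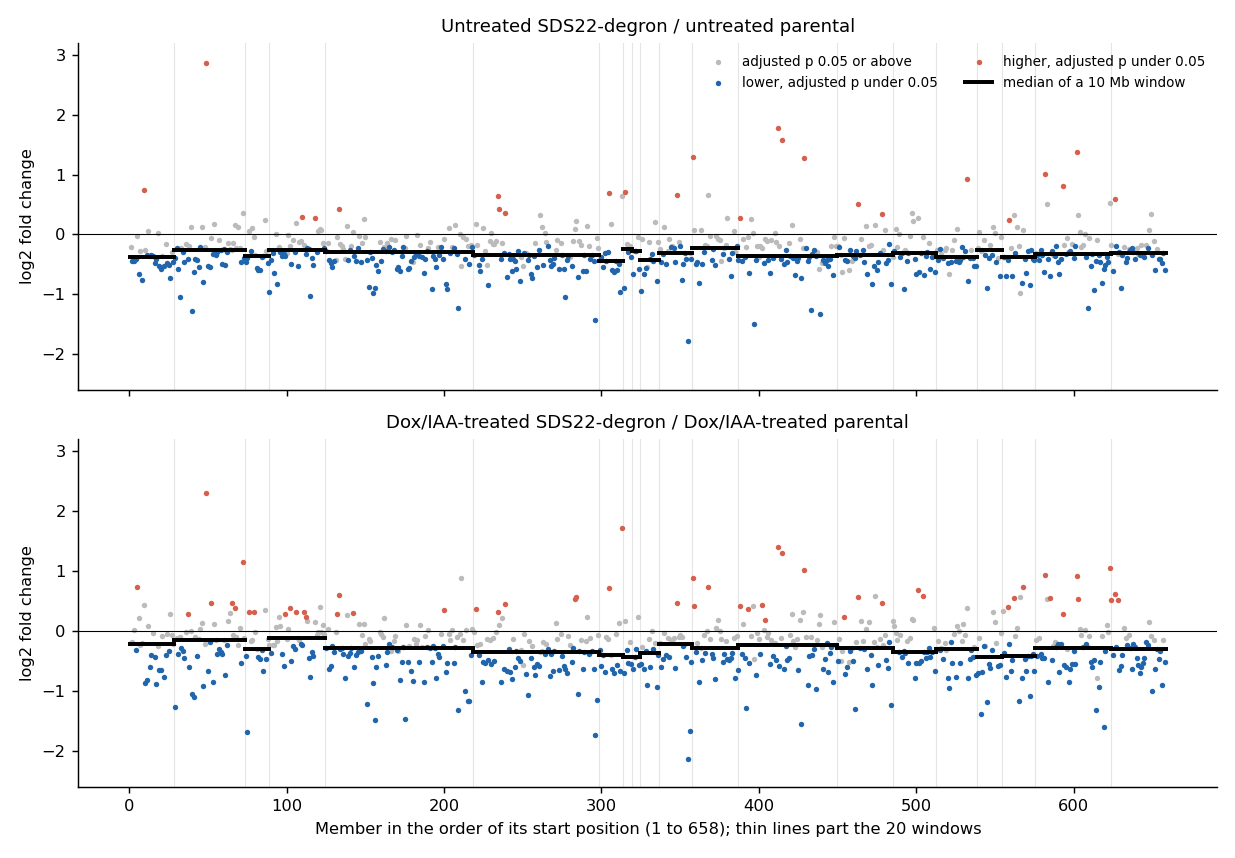
Log2 fold change of each member, SDS22-degron over parental, against its place in the order of start positions, without treatment (top) and with Dox/IAA in both lines (bottom). Blue and red dots are members with an adjusted p under 0.05, and black bars are window medians, which lie between -0.44 and -0.22 in the top panel and between -0.44 and -0.13 in the bottom panel.

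The members were next placed in windows of 10 Mb by their start position, which gave 20 windows holding 5 to 94 members each. The members are crowded in window 5 (40 to 50 Mb, 94 members) and window 6 (50 to 60 Mb, 80 members) and sparse in window 8 (70 to 80 Mb, 6 members) and window 9 (80 to 90 Mb, 5 members), on the short arm near the centromere. Between the untreated lines every window had a median under -0.2, and lower calls outnumbered higher calls in all 20. The window medians ran from -0.44 in window 7 (60 to 70 Mb, 15 members, from PTPRG to MITF), which is 73.8% of the parental level, to -0.22 in window 12 (110 to 120 Mb, 29 members, from NECTIN3 to GSK3B), which is 85.7%. The SD of the window medians was 0.06, and 1.5% of the variance of the members' log2 fold changes lay between windows. The medians followed neither the order of the windows (Spearman rho -0.08 over 20 windows) nor their number of members (rho 0.13) nor their median GC content (rho 0.06), values that are descriptions because all windows share the same libraries.

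No end of a low stretch was found inside the chromosome. The first member was TRNT1, which starts at position 3126916 and adds the CCA end to transfer RNAs, and the last was LMLN, which starts at 197960200. TRNT1 stood at 29.6, 28.1 and 23.8 CPM in untreated parental and 23.8, 25 and 21.6 CPM in untreated SDS22-degron cells, so the libraries overlapped, and its log2 fold change of -0.21 ± 0.10 (SE) did not pass the test (adjusted p = 0.115, edgeR). LMLN, a metallopeptidase gene, stood at 16.2, 17 and 13.4 CPM in untreated parental and at 11.4, 10.0 and 9.41 CPM in untreated SDS22-degron cells without overlap (log2 fold change -0.60 ± 0.12, adjusted p = 0.00106, edgeR). The longest run of neighbouring members below 0 was 53. The 324 members of the short arm had a median of -0.32 with 193 (59.6%) lower and 10 higher. The 334 members of the long arm, from PROS1 on, had a median of -0.32 with 191 (57.2%) lower and 14 higher. Of all tested genes 15% were lower and 13.2% higher. Between the treated lines the medians were -0.27 on the short arm and -0.30 on the long arm. There 167 (51.5%) and 184 (55.1%) members were lower, against 23.1% of all tested genes.

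Between the treated lines all 20 window medians were below 0 and lower calls again outnumbered higher calls in each. They ran from -0.44 in window 9 to -0.13 in window 4 (30 to 40 Mb, 36 members, from TGFBR2 to RPSA), and 18 windows were under -0.2. The exceptions were window 4 and window 2 (10 to 20 Mb, 45 members), at -0.15. The order of the windows differed between the comparisons, with a Spearman rho of 0.17 over the 20 window medians. The lowest window was window 7 without and window 9 with treatment, where window 7 stood at -0.40 and window 12 at -0.28. Some windows lay under the members' median in both, such as window 10 (-0.43 without and -0.37 with treatment) and window 18 (-0.38 and -0.41). Between-window differences took up 3.48% of the variance of the members.

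The single libraries gave the same picture. For each library, the level of a window was taken as the median over its members of the log2 CPM minus the gene's mean over the 12 libraries, less the same median over all tested genes. In window 5, which holds the most members, the untreated parental libraries stood at 0.13, 0.15 and 0.14 and the untreated SDS22-degron libraries at -0.16, -0.15 and -0.15. The treated libraries of that window stood at 0.16, 0.11 and 0.14 in parental and at -0.15, -0.17 and -0.14 in SDS22-degron cells, so the lines were apart by far more than the within-group SD of 0.0155. In window 8, with 6 members, the untreated parental libraries stood at 0.03, 0.01 and 0.08, the treated parental libraries at 0.21, 0.25 and 0.32, the untreated SDS22-degron libraries at -0.12, -0.15 and -0.30, and the treated ones at 0.03, -0.20 and -0.22. Here 1 treated SDS22-degron library overlapped the untreated parental ones. Within-group SDs ran from 0.0155 in window 5 to 0.11 in window 9, which holds the fewest members.

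The untreated SDS22-degron libraries lay entirely under the untreated parental libraries in all 20 windows, against 22.9% of the 280 windows of the autosomes with at least 5 such genes. The same held for the treated libraries in all 20 windows, against 22.5%. All 6 SDS22-degron libraries lay under all 6 parental libraries in 19 windows, against 16.4%, and window 8 was the exception. With the libraries centred instead on protein-coding genes of the other autosomes, a choice made after seeing the data, the last count was 20. Taken over all members, the parental libraries stood at 0.14, 0.15 and 0.10 untreated and 0.15, 0.17 and 0.15 treated, and the SDS22-degron libraries at -0.18, -0.16 and -0.18 untreated and -0.11, -0.15 and -0.11 treated. The pooled within-group SD of these values was 0.0167.

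Chromosome 3 was the lowest of the 22 autosomes between the untreated lines and the second lowest between the treated lines. The chromosome most like it was chromosome 16, whose 554 protein-coding genes selected in the same way had a median of -0.31 without and -0.32 with treatment. Of 260 windows on the other autosomes, 25 were under -0.2 between the untreated lines, of which 8 lay on chromosome 16, 8 on chromosome 1, 7 on chromosome 8, and 1 each on chromosomes 11 and 19. The lowest of these windows, on chromosome 16, had a median of -0.44, as low as window 7 of chromosome 3. Chromosome 16 had 1 window of 9, its last, above -0.2 (-0.10 without and -0.04 with treatment), and chromosome 1 had windows up to 0.10. Chromosome 3 alone had every window under -0.2 among the untreated lines. The median over the 260 other windows was 0.03.

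**Figure D3:**
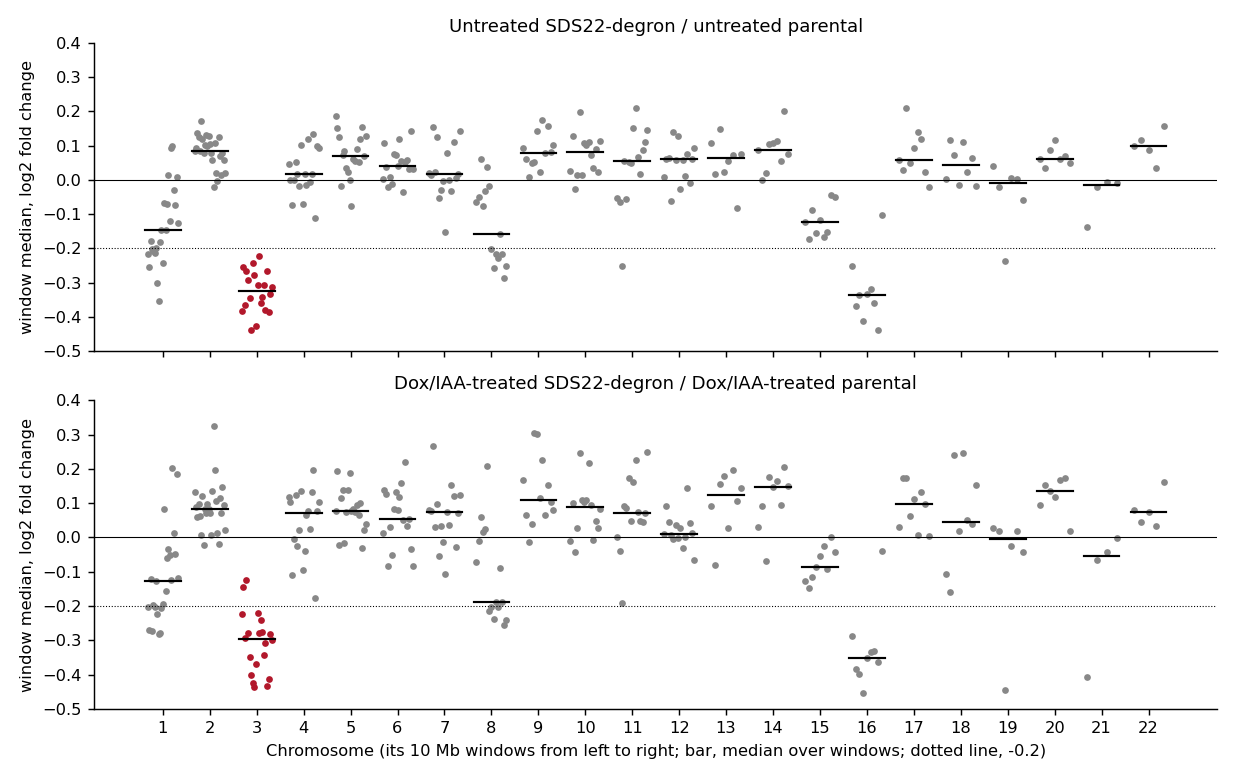
Median log2 fold change of the protein-coding genes in each 10 Mb window of the 22 autosomes, SDS22-degron over parental, without (top) and with Dox/IAA (bottom). Chromosome 3 is in red, black bars are medians over a chromosome's windows, and the dotted line is at -0.2, under which lie 20 of 20 windows of chromosome 3 in the top panel and 18 of 20 in the bottom panel.

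In every window the member with the highest mean CPM was named. Of these 20 genes, 17 were lower between the untreated lines, 1 was higher and 2 did not pass the test. Between the treated lines 15 were lower and 1 higher. Of all tested genes 15% and 23.1% were lower in the 2 comparisons, and 13.2% and 21.8% higher. Among the 165 members with the highest mean CPM (71.8 to 1330), 134 and 116 were lower. Leaving out single libraries gave 12 to 18 of the 20 genes lower between the untreated lines. In at least 1 of these fits 6 calls (CGGBP1, RPL22L1, RPL24, RPL32, SSR3 and TFRC) were lost, with adjusted p up to 0.22. DCBLD2 of window 10, a membrane receptor of the neuropilin kind, stood at 1600, 1632 and 1574 CPM in untreated parental and 967, 933 and 897 CPM in untreated SDS22-degron cells. With treatment it stood at 1794, 1781 and 1909 CPM against 947, 948 and 982 CPM, so that the lines were far apart in both states (log2 fold change -0.78 ± 0.06 and -0.93 ± 0.06). CNBP of window 13, a zinc finger protein that binds nucleic acids, stood at 484, 488 and 485 CPM in untreated parental and 352, 357 and 340 CPM in the untreated degron line. After Dox/IAA its libraries stood at 429, 393 and 400 CPM against 319, 284 and 282 CPM, and the log2 fold change was -0.47 ± 0.06 in both comparisons.

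Most of the other leading members differed by amounts close to the median of the chromosome. STT3B of window 4, a catalytic subunit of the oligosaccharyltransferase, had means of 324 ± 22.9 CPM in untreated parental and 241 ± 10.9 CPM in untreated SDS22-degron cells (SD, n = 3), a log2 fold change of -0.43 ± 0.07. TKT of window 6, the transketolase of the pentose phosphate pathway, had 723 ± 16.6 and 567 ± 21.1 CPM (-0.35 ± 0.06). PFN2 of window 15, a profilin that binds actin, differed by more, with 200 ± 21 and 129 ± 13 CPM (-0.63 ± 0.09). This is under the lower quartile of the members (-0.46). STT3B, TKT and PFN2 were also lower between the treated lines, with log2 fold changes of -0.37, -0.42 and -0.66. Ribosomal protein genes among the leading members differed from each other. RPL24 (-0.23) and RPL32 (-0.21) were among the lower calls that were lost in fits without a single library, whereas RPL15 of window 3 had 486 ± 32.2 and 473 ± 5.49 CPM in the untreated lines (log2 fold change -0.04 ± 0.08, adjusted p = 0.747) and was higher in SDS22-degron cells after treatment, at 419 ± 44.7 and 524 ± 25.3 CPM (0.32 ± 0.08, adjusted p = 0.00202, edgeR). RPL22L1 of window 18 was higher without treatment (0.24 ± 0.07, adjusted p = 0.0158 by edgeR, and 0.0728 without untreated SDS22-degron replicate 2) and had -0.22 ± 0.07 with it, a call that was lost in at least 1 fit without a single library. Near-identical copies of ribosomal protein genes exist elsewhere in the genome, so counts of these genes are uncertain.

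Among members with a mean of at least 10 CPM, the lowest between the untreated lines were MYH15, PPARG, GATA2, LIPH and CHDH, from 5 different parts of the chromosome. MYH15 of window 11, a myosin heavy chain gene, stood at 27.2, 29.9 and 35.1 CPM in untreated parental and at 7.44, 10.7 and 8.50 CPM in untreated SDS22-degron cells, a log2 fold change of -1.78 ± 0.16 (adjusted p = 2.79e-07, edgeR). After Dox/IAA it stood at 49.9, 48.4 and 60 CPM against 9, 12.2 and 14.9 CPM (-2.13 ± 0.15). The lines did not overlap in either state. PPARG of window 2, a nuclear receptor that governs lipid genes, stood at 44.5, 44.8 and 55 CPM against 18.5, 20.4 and 20.5 CPM without treatment (-1.28 ± 0.12) and was also lower with it (-1.05 ± 0.12). CHDH of window 6, the choline dehydrogenase of mitochondria, stood at 49.6, 49.1 and 56.0 CPM against 26.8, 25 and 23 CPM (-1.05 ± 0.11) and at -0.63 ± 0.12 with treatment.

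GATA2 and LIPH were lower without treatment and did not pass the test with it. GATA2 of window 13, a zinc finger transcription factor best known from blood and vessel cells, stood at 48.8, 58.2 and 64.9 CPM in untreated parental and at 29.0, 23.5 and 19.4 CPM in untreated SDS22-degron cells (-1.26 ± 0.14, adjusted p = 3.36e-06, edgeR). With treatment it stood at 41.3, 40.9 and 51.5 CPM against 48.7, 38.6 and 37.6 CPM, so that the libraries overlapped (-0.10 ± 0.14, adjusted p = 0.592, edgeR). LIPH of window 19, a membrane-bound lipase that makes lysophosphatidic acid, stood at 19.5, 14.8 and 20.3 CPM against 7, 7.70 and 8.50 CPM without treatment (-1.23 ± 0.14). With treatment it stood at 20.8, 17.2 and 20.3 CPM against 13.7, 16.8 and 17.9 CPM (-0.27 ± 0.13, adjusted p = 0.0958, edgeR). An antisense transcript, GATA2-AS1, overlaps GATA2, and since it is not stated whether counting used the strand, their reads may not be told apart.

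At the same mean of at least 10 CPM, the highest members in the untreated SDS22-degron line, against the direction of the chromosome, were NECTIN3, VWA5B2, LRIG1, NXPE3 and CACNA2D2. NECTIN3 of window 12, a cell adhesion protein, stood at 31.8, 30.7 and 29.0 CPM in untreated parental and at 78.4, 72.5 and 73.2 CPM in untreated SDS22-degron cells, a log2 fold change of 1.29 ± 0.07 (adjusted p = 4.02e-10, edgeR). With Dox/IAA it stood at 23.2, 23.9 and 25 CPM against 42.6, 44.4 and 46.0 CPM (0.88 ± 0.07). Its groups did not overlap in either state. LRIG1 of window 7, a brake on epidermal growth factor receptor signalling, stood at 8.19, 8.37 and 9.39 CPM against 14.7, 14.2 and 12.8 CPM (0.68 ± 0.12) and had 0.71 ± 0.12 with treatment. NXPE3 of window 11 (0.65 ± 0.12), CACNA2D2 of window 6, an auxiliary subunit of voltage-gated calcium channels (0.64 ± 0.09), and VWA5B2 of window 19 (0.80 ± 0.12) were also higher between the untreated lines.

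A list of 16 genes, made for a part in colorectal cancer or in this line, was chosen with earlier results of these data known. How well each gene fits that heading was not checked, and GATA2 was also among the 5 lowest members. The counts below are therefore a description. Between the untreated lines 14 were lower, none was higher, and 2 (RASSF1 at 0.02 and FHIT at -0.22) did not pass the test, where 15% of all tested genes and 58.4% of the members were lower. The list median was -0.39 beside -0.32 over all members. Of the 14 calls, 7 were lost in at least 1 fit that left out a single library, among them BAP1, BCL6, MECOM, PBRM1, SETD2 and TFRC, so that 8 to 14 members of the list were lower in these fits. Between the treated lines 10 were lower and none higher, where 23.1% of all tested genes and 53.3% of the members were lower, with a median of -0.32. CTNNB1, the beta-catenin of Wnt signalling, stood at 419, 488 and 457 CPM in untreated parental and at 332, 336 and 339 CPM in untreated SDS22-degron cells, a log2 fold change of -0.44 ± 0.07 (adjusted p = 7.13e-05, edgeR), and at -0.35 ± 0.07 with treatment. VHL, the substrate receptor for hypoxia-inducible factors, had 82.3 ± 4.44 and 55.2 ± 4.50 CPM (-0.57 ± 0.08). TGFBR2, the type II receptor for transforming growth factor beta, stood at 75.1, 62.9 and 69.6 CPM against 33.7, 35.4 and 37.7 CPM without treatment (-0.96 ± 0.12), and with treatment at 67.9, 77.6 and 87.7 CPM against 52.8, 75.2 and 69.6 CPM, which overlap (-0.24 ± 0.11, adjusted p = 0.0909, edgeR). PIK3CA, the catalytic subunit of a phosphoinositide 3-kinase, stood at -0.40 ± 0.08 and -0.47 ± 0.08 in the 2 comparisons.

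How the difference depended on the properties of the genes was described after dividing the members into 4 groups of 164 or 165 by each property. By mean CPM, the lowest group (1.30 to 13.6 CPM) had a median of -0.25 and 47 lower calls, and the other 3 groups medians of -0.34, -0.32 and -0.33 with 94, 109 and 134 lower calls. The median SE of the log2 fold change was 0.17 in the lowest group and 0.07 in the highest. The numbers of calls therefore cannot be compared apart from this precision. By GC content the group medians lay between -0.33 and -0.31, and by gene length between -0.34 and -0.30. Members that overlap another counted gene of the chromosome (261) and those that overlap none (397) both had a median of -0.32. Tested genes of chromosome 3 that are not protein-coding, which the rule did not use, had a median of -0.11 over 252 genes between the untreated lines. The median over 3980 such genes of other chromosomes was 0.01. Of the 252 genes 34 (13.5%) were lower and 5 (1.98%) higher, against 6.98% and 5.75% of the 3980. Between the treated lines the 2 medians were -0.16 and -0.05. The 29 tested protein-coding genes of the chromosome under the count threshold had a median of -0.12 between the untreated lines. Of these 2 (6.9%) were lower and 2 (6.9%) higher, against 15% and 13.2% of all tested genes.

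Within the SDS22-degron line many members rose and many fell with Dox/IAA. The median of the members was 0.06, beside 0.00 over all tested genes and 0.06 over the protein-coding genes of the other autosomes. By the same test 195 members (29.6%) rose, against 26% of all tested genes, and 149 (22.6%) fell, against 25.5%. Of 11738 other protein-coding genes tested, 32.1% rose and 25.5% fell. The window medians ran from -0.08 in window 17 (160 to 170 Mb, 16 members) to 0.21 in window 9. Single libraries weighed on both: window 9 stood at 0.12 without untreated SDS22-degron replicate 3, and window 17 at -0.0017 without treated SDS22-degron replicate 1. The treated libraries lay above the untreated ones without overlap in 10 windows, against 36.1% of the windows of the autosomes, and below them in none, against 12.1%. With the libraries centred on protein-coding genes of the other autosomes, these counts were 6 and 3. Over all members, the treated SDS22-degron libraries (-0.11, -0.15 and -0.11) lay above the untreated ones (-0.18, -0.16 and -0.18) relative to all tested genes. Relative to the protein-coding genes of the other autosomes they overlapped, at -0.14, -0.17 and -0.16 against -0.17, -0.15 and -0.16.

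In the parental line, which has no degron, the median of the members with Dox/IAA was 0.02, beside 0.00 over all tested genes and 0.03 over protein-coding genes of the other autosomes. There 136 members (20.7%) rose, against 15.9% of all tested genes, and 95 (14.4%) fell, against 15.7%. Of the other protein-coding genes tested, 20% rose and 15% fell. Scaled by library size only, a choice that acts on all genes of a library alike, 174 members rose and 77 fell. The shares over all tested genes were not counted under that scaling. The window medians ran from -0.04 in window 18 (170 to 180 Mb, 21 members) to 0.23 in window 9, which stood at 0.12 without untreated parental replicate 3 and held 5 members. Window 18 stood between -0.12 (without treated parental replicate 2) and -0.04 when single libraries were left out. The treated libraries lay above the untreated ones without overlap in 3 windows, against 26.1% of the windows of the autosomes, and below them in none, against 9.29%. Centred on the protein-coding genes of the other autosomes, these counts were 3 and 1. Over the 20 windows the medians of both lines had a Spearman rho of 0.41, and over the 658 members the Dox/IAA effects had a rho of 0.70, descriptions across genes that share libraries within each line.

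**Figure D4:**
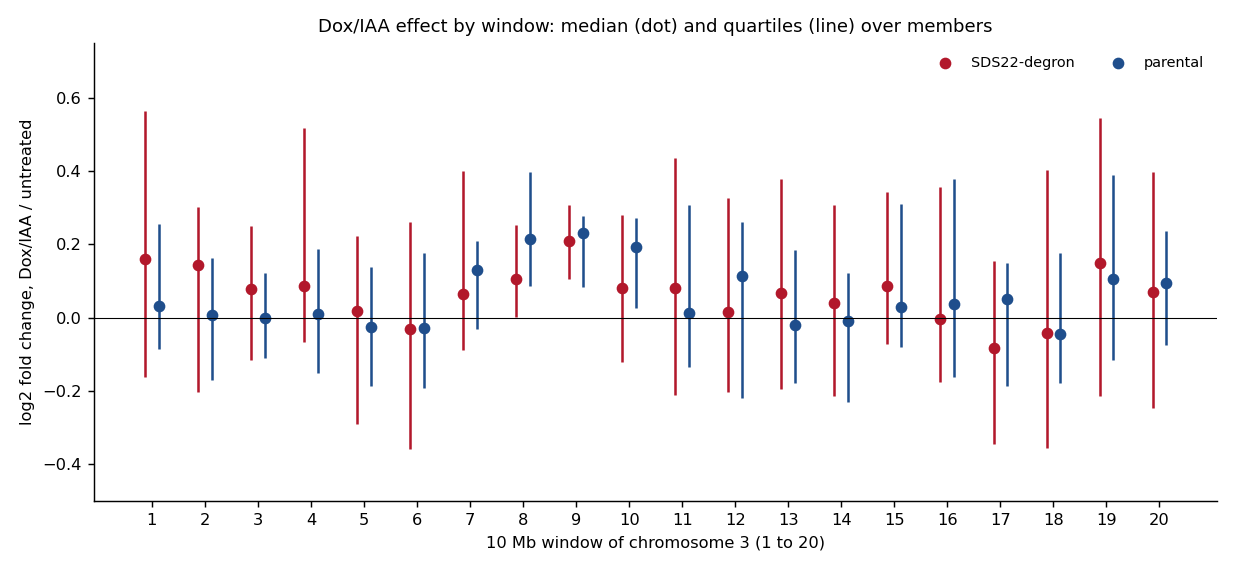
Log2 fold change with Dox/IAA over untreated cells by 10 Mb window of chromosome 3, with the median (dot) and the quartiles over members (line), in the SDS22-degron and the parental line. The medians lie between -0.08 and 0.21 in SDS22-degron and between -0.04 and 0.23 in parental cells, and the quartiles lie on both sides of 0 except in windows 8 and 9 of both lines and window 10 of the parental line.

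The members that moved most with Dox/IAA were scattered over the windows. In SDS22-degron cells SATB1 of window 2, an organiser of chromatin loops, rose from 11.7, 14.5 and 13.7 CPM to 38.8, 42.1 and 40.7 CPM, a log2 fold change of 1.61 ± 0.13 (adjusted p = 1.31e-08, edgeR). In the parental line it rose from 12.0, 8.37 and 11 to 18.5, 14.9 and 21.2 CPM (0.81 ± 0.14). PROS1 of window 10, the anticoagulant protein S, rose by 1.48 ± 0.12 in SDS22-degron and by 1.09 ± 0.11 in parental cells, and PARP9 of window 13, an interferon-inducible partner of DTX3L, by 1.35 ± 0.08 and 0.70 ± 0.08. HRH1 of window 2, the histamine H1 receptor, rose from 13.6, 12.4 and 12.5 CPM to 37.8, 28.4 and 29.5 CPM in parental cells (1.31 ± 0.12) and by 1.32 ± 0.12 in SDS22-degron cells. VWA5B2 rose by 1.21 ± 0.11 in parental cells. RRP9 of window 6, a protein of the U3 small nucleolar RNP, fell by 0.70 on the log2 scale in parental and by 0.86 in SDS22-degron cells, CHCHD4 of window 2, which imports proteins into the mitochondrial intermembrane space, by 0.70 and 0.83, and TFRC of window 20, the transferrin receptor, by 0.68 and 1.07.

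Genes of cell division, DNA replication and repair, a list of 22 chosen for their function, mostly fell with Dox/IAA in SDS22-degron cells. This list, too, was made with earlier results of these data known. All but ATRIP were members. Of the 21 members, 13 fell with Dox/IAA in SDS22-degron cells, 2 rose (XPC and TFDP2) and 6 did not pass the test, where 25.5% of all tested genes fell and 26% rose. The list median was -0.91 beside 0.06 over all members. In the parental line 4 fell and none rose, where 15.7% of all tested genes fell, with a median of -0.09. RFC4, a subunit of the clamp loader of replication, fell from 51.3, 52.1 and 51.7 CPM to 21.4, 16.1 and 18.4 CPM in SDS22-degron cells (-1.47 ± 0.10, adjusted p = 3.54e-09, edgeR), and from 79.9, 80.6 and 69.8 to 51.3, 63.0 and 56.1 CPM in parental cells (-0.44 ± 0.09). MCM2, a subunit of the replicative helicase, fell from 198, 193 and 197 CPM to 105, 76.6 and 82.4 CPM in SDS22-degron cells (-1.15 ± 0.09). EIF4A2 overlaps RFC4 and TPRA1 overlaps MCM2, with the same limit on strand, which also touches SATB1, PARP9, DCBLD2, CTNNB1, PPARG, LRIG1, VWA5B2, RPL15, XPC and CDC25A.

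Between the untreated lines 13 of these 21 genes were lower and none higher, where 15% of all tested genes and 58.4% of the members were lower, with a median of -0.39 beside -0.32 over all members. Between the treated lines 19 were lower and 1 (XPC, 0.46 ± 0.07) higher, where 23.1% of all tested genes and 53.3% of the members were lower, with a median of -1.17 beside -0.28. Leaving out single libraries lost 3 of the untreated calls, among them RAD18 and SGO1, which left 10 to 16 genes lower, and 3 of the treated ones (CEP63, MBD4 and TFDP2, adjusted p up to 0.342). SGO1 of window 3, the shugoshin that guards centromeric cohesion, stood at 18.4, 26.1 and 18.3 CPM in treated parental and at 6.86, 5.34 and 7.41 CPM in treated SDS22-degron cells (-1.68 ± 0.16). TOP2B, a DNA topoisomerase, was lower in SDS22-degron cells in both states (-0.60 ± 0.07 and -0.43 ± 0.07) and showed 0.08 ± 0.07 with Dox/IAA (adjusted p = 0.341, edgeR). ZMAT3 of window 18, an RNA-binding protein encoded by a p53 target gene, was higher between the treated lines (0.74 ± 0.10), with 62.9, 77.5 and 67.7 CPM against 39.4, 42.1 and 43.4 CPM, and at 0.07 ± 0.10 between the untreated ones (adjusted p = 0.636, edgeR).

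The last comparison asked whether the Dox/IAA effect of a member differed between the lines, by the interaction term of the same fit. The median of the members was 0.02, beside 0.00 over all tested genes, and the window medians ran from -0.16 in window 8 to 0.12 in window 7. Leaving out single libraries moved window 8 between -0.26 (without untreated parental replicate 2) and -0.11 (without untreated SDS22-degron replicate 2), and window 7 between 0.07 (without untreated parental replicate 1) and 0.13. The effect was higher in SDS22-degron cells for 46 members (6.99%), against 6.03% of all tested genes, and lower for 50 (7.6%), against 8.35%. Of the other protein-coding genes tested, 7.57% were higher and 9.29% lower. In a fit with a replicate block and GC correction, 71 members were higher and 57 lower. Without untreated SDS22-degron replicate 2, 32 members were lower. The shares over all tested genes were not counted in these fits. In the list of cell division genes 12 of 21 were lower and 2 higher, beside these shares of 8.35% and 6.03% over all tested genes.

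Among members with at least 10 CPM, the largest differences of this kind lay in different windows. KIAA1524 of window 11, which encodes CIP2A, an inhibitor of protein phosphatase 2A, stood at 63.7, 70.2 and 53.1 CPM in untreated and 52.9, 74.1 and 61.6 CPM in treated parental cells. In SDS22-degron cells it fell from 49.1, 53.0 and 49.0 CPM to 21.5, 20.6 and 17.4 CPM. CDC25A of window 5, a phosphatase that activates cyclin-dependent kinases, fell from 35.9, 38.2 and 40.2 CPM to 17.2, 13.7 and 13.8 CPM in SDS22-degron cells and stood at 37.4, 50.3 and 45.5 against 38, 44.7 and 40.9 CPM in parental cells. KLHL24 of window 19, an adaptor of a ubiquitin ligase, rose from 17.7, 13.1 and 13.1 CPM to 28.8, 34.3 and 32.9 CPM in SDS22-degron cells and stood at 23.5, 21.6 and 26.4 against 24.1, 17.8 and 23.8 CPM in parental cells. The treated SDS22-degron libraries were thus the lowest of the 12 for the first 2 genes and the highest for KLHL24.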

How the data were processed

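Poly-A RNA of 4 groups of 3 libraries was read as 1 table of raw counts per gene that the authors deposited, with gene type, chromosome, position, length and GC percent from the authors' annotation. Per the labels, the submitters' processing notes name cutadapt 1.15, Bowtie2 2.3.3.1, STAR 2.5.2b, SAMtools 1.5, featureCounts 1.5.3 and build GRCh38. Their roles, the annotation release and the use of strand in counting are not given in the sources used here. The members and gene lists were chosen with earlier results of these data known.

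Genes were kept by filterByExpr (minimum count 10), and 1 fit of 4 group means over all 12 libraries was made with edgeR 4.0.16 in R 4.3.3, using TMM factors (0.971 to 1.03) and the quasi-likelihood F test. The study named edgeR with a likelihood ratio test, which was run as an alternative beside DESeq2 1.42.0, other scalings and filters, GC correction, a replicate block, other member rules and window grids, and fits without single libraries. The CPM of members are on TMM-scaled library sizes, and errors after ± are SE for log2 fold changes (the fold change over the root of its F statistic) and SD for levels.

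Named were the member with the highest mean CPM in each window, the 5 highest and 5 lowest members between the untreated lines and 3 each way in the other comparisons (adjusted p under 0.05, no overlap except for the interaction, at least 10 CPM), 2 lists by function, and the first and last member. Numbers were taken to pair the libraries where every same-numbered correlation of their deviations passed a limit of 0.1. This held between the treated lines (0.101 to 0.138) and within the parental line (0.124 to 0.246). It did not hold within the SDS22-degron line (-0.00926 to 0.0953) or between the untreated lines (0.0584 to 0.118). Differently numbered untreated libraries of the 2 lines had -0.0795 to -0.0111, so missing the limit does not show that pairing is absent there. The main fit left pairing out in all comparisons, and its p-values and calls are unpaired. A replicate block was run only as an alternative. RefSeq tables of GRCh38.p14 matched 642 members by symbol, all at overlapping positions.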

Additional observations from a re-analysis of the deposited data

Results flagged for a closer look

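The effect of Dox/IAA differed between the lines, by the interaction term of the edgeR fit, for the 3 highest and the 3 lowest members with at least 10 CPM. The values are the log2 effect in SDS22-degron cells minus that in parental cells. Other members named for other comparisons also passed this test, among them RFC4 at -1.04, LIPH at 0.96 and SATB1 at 0.80. The difference was -1.355 ± 0.167 for KIAA1524 (adjusted p = 5.28e-05, edgeR), -1.281 ± 0.211 for SGO1 (adjusted p = 0.000529, edgeR) and -1.244 ± 0.157 for CDC25A (adjusted p = 6.25e-05, edgeR). Each of these genes fell with Dox/IAA in SDS22-degron cells and did not pass the test in parental cells. It was 1.248 ± 0.187 for KLHL24 (adjusted p = 0.000249, edgeR), 1.161 ± 0.195 for GATA2 (adjusted p = 0.000651, edgeR) and 1.012 ± 0.232 for CRELD1, an epidermal growth factor domain protein of window 1 (adjusted p = 0.00648, edgeR). CRELD1 stood at 8.24, 9.97 and 9.19 CPM in untreated and 20.1, 22.7 and 22.9 CPM in treated SDS22-degron cells, and at 20.9, 11.7 and 13 CPM in untreated and 20, 16 and 17.8 CPM in treated parental cells. Single libraries that stand apart were not looked for, since each group held 3.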

How the results depend on the processing

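The lower level of the members in SDS22-degron cells kept its direction under every alternative that was run. Scaled by library size only and by the upper quartile, the median between the untreated lines was -0.29 in both. The median over all tested genes was then 0.03 and 0.04. When single libraries were left out, the members' median ran from -0.35 (without untreated parental replicate 3) to -0.28 (without untreated parental replicate 2). In those fits 312 to 398 members were lower and 19 to 25 higher. Between the treated lines it was -0.25 with the upper quartile, and leaving out single libraries gave -0.30 to -0.27, 322 to 358 lower and 44 to 56 higher. With Dox/IAA, library size only gave medians of 0.098 in SDS22-degron and 0.082 in parental cells. The TMM factors that it leaves out were 0.971, 0.976 and 0.975 in untreated and 1.00, 1.03 and 1.01 in treated parental libraries. In SDS22-degron libraries they were 0.997, 0.993 and 0.987 without and 1.03, 1.03 and 1.00 with Dox/IAA. Leaving out single libraries gave 0.031 (without treated SDS22-degron replicate 1) to 0.074 (without treated parental replicate 2) in SDS22-degron cells, with 165 to 212 higher and 127 to 163 lower, and 0.01 to 0.03 in parental cells, with 99 to 134 higher and 76 to 97 lower. For the interaction it gave 31 to 47 higher and 32 (without untreated SDS22-degron replicate 2) to 65 (without untreated parental replicate 2) lower. The study's cut-off left 7 higher and 11 lower between the untreated lines, where 2.84% and 1.3% of all tested genes were. Between the treated lines it left 7 and 26, where 3.25% and 3.38% of all tested genes were. It left 31 and 13 with Dox/IAA in SDS22-degron, 11 and 1 in parental cells, and 7 and 7 for the interaction. For these last comparisons the shares over all tested genes were not counted at this cut-off, so their balance cannot be judged. The cause of the moves between settings was not tested. By construction, scaling acts on all genes of a library alike, and the cut-off removes small differences. Of 460 window medians between the untreated lines under the alternatives, none reached 0 (-0.62 to -0.17), and of 460 between the treated lines 1 did. Windows shifted by 5 Mb gave medians of -0.42 to -0.20, and 5 Mb windows -0.45 to -0.18.

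With the replicate block, 24 members were higher and 409 lower between the untreated lines, 62 and 371 between the treated lines, 205 and 160 with Dox/IAA in SDS22-degron cells, 154 and 115 in parental cells, and 65 and 59 for the interaction. The block moved no count by over 1.5 times, whereas the block with GC correction gave 71 higher for the interaction. The shares over all tested genes were not counted in the fits with a block or without a single library. Whether these counts moved with those of all genes can therefore not be judged.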
